A study of Homo sapiens with 4 samples.

Results

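The mRNAs of 10 SR splicing factors (SRSF1, SRSF2, SRSF3, SRSF4, SRSF5, SRSF6, SRSF7, SRSF9, SRSF10 and SRSF11) were followed in HaCaT cells after knockdown of ALKBH5, the nuclear enzyme that removes N6-methyladenosine (m6A) from RNA. The genes were chosen by name, among the 58735 genes listed in the expression tables, and all 10 were among the 15075 genes that passed the expression filter. HaCaT is an established line of human keratinocytes. The siControl group was transfected with a normal control siRNA and is labelled wild type, and the siALKBH5 group was transfected with siRNA against ALKBH5. Lipofectamine was used in both, and each group holds 2 poly-A RNA-seq libraries. The labels do not say whether the libraries of a group came from separate cultures, so p-values rest on the spread between these libraries, which may be technical. The edgeR fit estimates that spread for each gene with information shared over genes. The labels also do not say which of the siRNAs designed in the study was transfected. The comparison asks how the mRNA levels of the SR family differ when the m6A demethylase is reduced.

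SR proteins bind pre-mRNA through RNA recognition motifs and contact other splicing components through a tail rich in arginine and serine. They mark exons for the spliceosome, and several of them accompany the spliced mRNA to the cytoplasm. Their tails are phosphorylated in the cytoplasm by SRPK kinases, which promotes nuclear import through transportin-SR (TNPO3), and in the nucleus by CLK kinases, which release them from nuclear speckles. Many SR genes limit their own output through alternative exons that bring in a premature stop codon and send the transcript to nonsense-mediated decay. YTHDC1, the nuclear m6A reader, is known to bind SRSF3 and SRSF10, which links the family to the mark that ALKBH5 removes.

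The siRNAs are shown because the knockdown rests on them and because a guide strand can also pair with other mRNAs through its seed, bases 2 to 8, which is in capitals. Sequences were taken from the oligonucleotide table of the study and are written 5′ to 3′.
ALKBH5-si1 antisense strand: uCGCCGAAgaaguacuugu
ALKBH5-si2 antisense strand: uAGUCGUUgaugacggcgc
Searched over all annotated transcripts, each full target was found in 1 gene, ALKBH5. The 7-base match to the seed of si1, TTCGGCG, was in the 3′UTR of 48 of 12207 coding genes (0.393%) and of 0 SR factors. The match to the seed of si2, AACGACT, was in 163 genes (1.34%), of which 1 was an SR factor, SRSF2. The match starts at position 1219 of the 2046 bases of its 3′UTR. It is in capitals within a longer stretch that spans chr17:76734925-76734953 (GRCh38, minus strand).
SRSF2 3′UTR: ttagtgaggtgAACGACTtcagatttcat

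ALKBH5 itself was read first as a check of the labels. Its normalised level, in CPM (counts scaled to a common library size by TMM), was 93.8 and 87.6 in siControl and 51.2 and 49.6 in siALKBH5. The groups did not overlap, and ALKBH5 fell to 55.6% of control (log2 fold change -0.85 ± 0.05 SE, adjusted p = 6.4e-15 by edgeR's quasi-likelihood test with Benjamini-Hochberg adjustment over all genes tested, which gives every adjusted p below). The libraries held between 16017502 and 18837807 counts on genes, and libraries of one group differed by more than counting noise in a chi-square test over genes. Mitochondrial genes took 10.2% of the counts in each siControl library against 9.63% and 9.64% after knockdown, and their part in the results was not tested. All 8 keratinocyte markers looked up were detected, and their summed level was 15460 and 15140 TPM (counts per listed gene length, scaled to a common total) in siControl against 19740 and 19680 in siALKBH5. Summed leukocyte markers were at 3.42 and 4.46 TPM in siControl and 6.26 and 5.71 TPM in siALKBH5, and their part in the results, like that of the keratinocyte markers, was not tested. Fibroblast, melanocyte and endothelial sums were each between 2.08 and 11.8 TPM, with COL1A2, PDGFRB and TYR at 0 counts in every library.

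After ALKBH5 knockdown, 1 of the 10 SR factor mRNAs was higher and 4 were lower at an adjusted p under 0.05. SRSF3 was the one that rose, to 123.3% of control. SRSF5, SRSF11, SRSF10 and SRSF6 fell, to between 77.5% and 85.2% of control, and SRSF1, SRSF2, SRSF4, SRSF7 and SRSF9 did not pass the test. Over all genes tested, 19.3% were called higher and 17.3% lower. With the fold threshold of the study added (a log2 change of 1 or more in either direction), 0 of the SR factors were called by edgeR or by DESeq2, beside 2.92% of all genes. The siControl and siALKBH5 libraries did not overlap in CPM for 8 of the 10, SRSF2 and SRSF9 being the exceptions, against 66.3% of all genes tested. The median log2 fold change was -0.09 over the 10 SR factors and -0.01 over all genes tested. In bulk RNA, fewer cells of a type and less RNA per cell cannot be told apart.

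**Figure D1:**
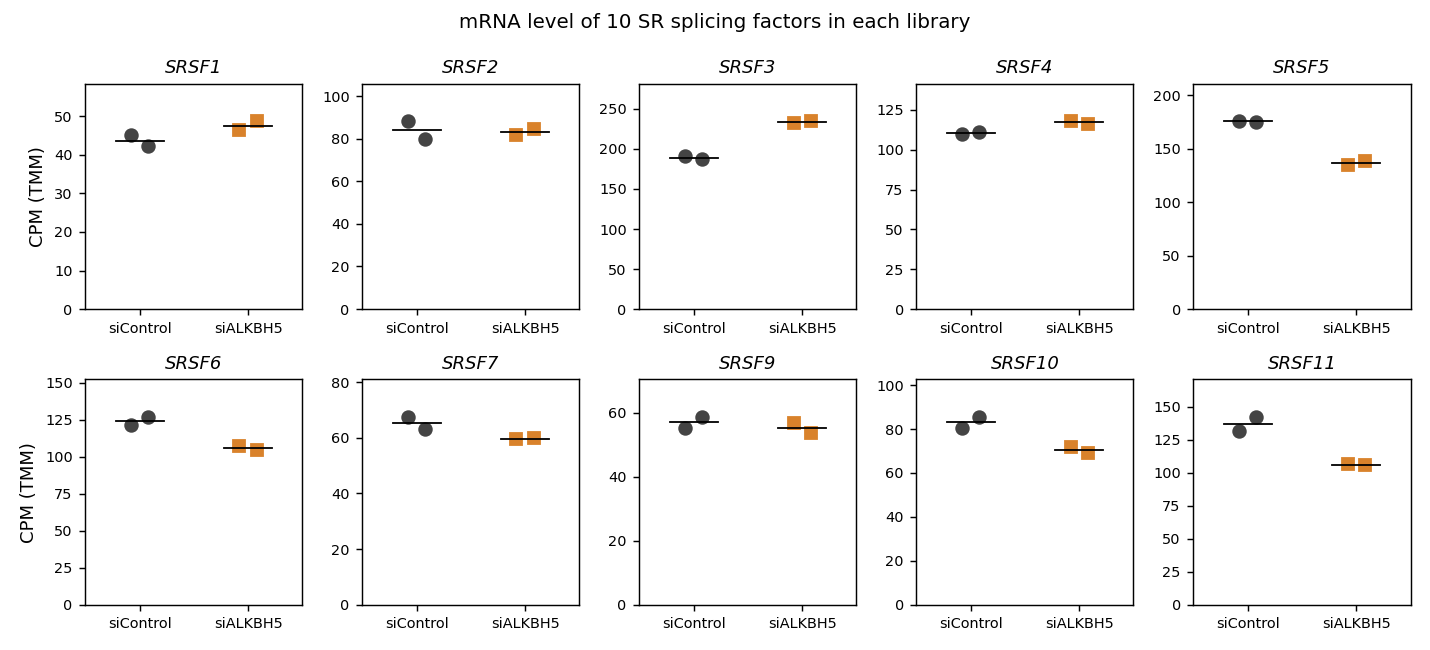
Normalised level (CPM, TMM-scaled, linear axes from 0) of each of the 10 SR factors in the 2 siControl libraries (circles) and the 2 siALKBH5 libraries (squares), with the group means as bars. SRSF3 lies near 189 CPM in siControl and 233 CPM in siALKBH5, SRSF5, SRSF6, SRSF10 and SRSF11 lie lower in siALKBH5, and the libraries of SRSF2 and SRSF9 overlap between groups.

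**Figure D2:**
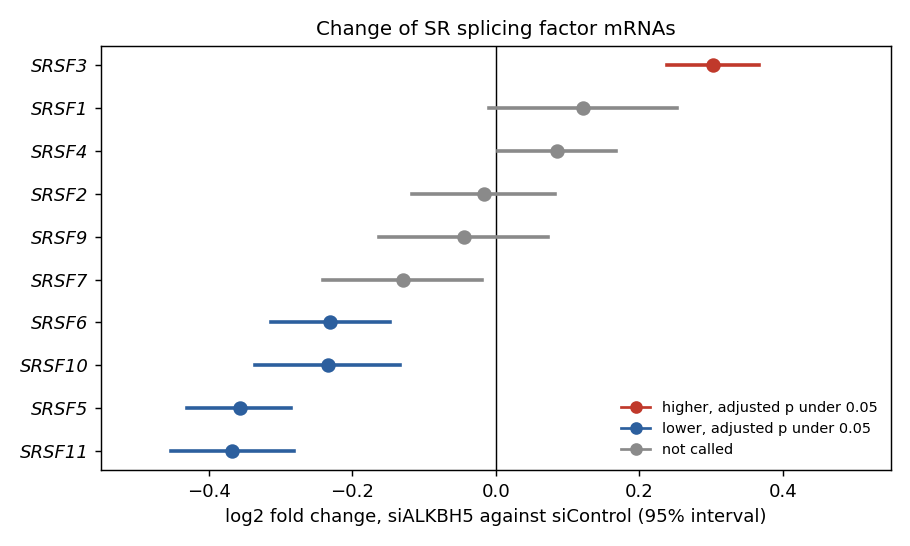
Log2 fold change of each SR factor, siALKBH5 against siControl, with the 95% interval of edgeR's quasi-likelihood model as lines and the call as colour. SRSF3 is the gene called higher (0.30), and SRSF6, SRSF10, SRSF5 and SRSF11 are the genes called lower, from -0.23 to -0.37.

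SRSF1, SRSF3 and SRSF7 are known as shuttling SR proteins that act as adaptors for the mRNA export receptor NXF1. SRSF3 (SRp20, ENSG00000112081, chr6:36594353-36605600, plus strand), among the smallest of the family, had 191 and 187 CPM in the siControl libraries and 232 and 235 CPM in the siALKBH5 libraries. The distance between the groups was many times the distance within them. The means were 189 ± 2.64 and 233 ± 1.70 (SD, n = 2), which is a log2 fold change of 0.30 ± 0.03 SE (95% interval 0.24 to 0.37, adjusted p = 1.8e-09 by edgeR). SRSF7 (9G8, ENSG00000115875, chr2:38743599-38751494, minus strand), which carries a zinc knuckle beside its RNA recognition motif, had 67.5 and 63.1 CPM in siControl and 59.4 and 59.8 CPM in siALKBH5. Both siALKBH5 values lay under both siControl values, and the log2 fold change of -0.13 (95% interval -0.24 to -0.02) had an adjusted p = 0.06 by edgeR. SRSF7 passed the test in 3 of 12 alternatives, among them library size in place of TMM (-0.15, adjusted p = 0.028 by edgeR) and the omission of siControl replicate 2 (-0.18, adjusted p = 0.039 by edgeR). SRSF1 (SF2/ASF, ENSG00000136450, chr17:58003360-58007346, minus strand), the founding member of the family, had 45.0 and 42.3 CPM in siControl and 46.3 and 48.7 CPM in siALKBH5. Its siALKBH5 values were both above its siControl values, by a gap smaller than the distance within either group, and the log2 fold change of 0.12 (95% interval -0.01 to 0.25) had an adjusted p = 0.14 by edgeR.

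SRSF4, SRSF5 and SRSF6 (SRp75, SRp40 and SRp55) are closely related proteins with a pair of RNA recognition motifs that promote the use of weak splice sites, and SRSF6 is known for a role in skin homeostasis and wound healing. SRSF5 (ENSG00000100650, chr14:69726900-69772005, plus strand) had 176 and 175 CPM in siControl and 135 and 139 CPM in siALKBH5. The siControl libraries were nearly equal and the siALKBH5 libraries lay well under them. SRSF5 fell to 78.1% of control (log2 fold change -0.36 ± 0.04 SE, 95% interval -0.43 to -0.29, adjusted p = 6.2e-10 by edgeR). SRSF6 (ENSG00000124193, chr20:43457928-43464247, plus strand) had 122 and 127 CPM in siControl and 107 and 104 CPM in siALKBH5. The groups did not overlap, and SRSF6 fell to 85.2% of control (log2 fold change -0.23 ± 0.04 SE, adjusted p = 3e-05 by edgeR). SRSF4 (ENSG00000116350, chr1:29147743-29181987, minus strand) had 110 and 111 CPM in siControl and 118 and 116 CPM in siALKBH5. Both siALKBH5 libraries were higher, but the log2 fold change of 0.09 (95% interval 0.00 to 0.17) had an adjusted p = 0.099 by edgeR. The point estimate for SRSF4 thus had the other sign from those for SRSF5 and SRSF6, and the differences between these genes were not tested.

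SRSF2 and SRSF9 were the members whose groups overlapped. SRSF2 (SC35, ENSG00000161547, chr17:76734115-76737374, minus strand), a classical component of nuclear speckles, had 88.2 and 80.0 CPM in siControl and 81.5 and 84.5 CPM in siALKBH5. Both siALKBH5 values fell between the siControl values, and the log2 fold change was -0.02 (95% interval -0.12 to 0.08, adjusted p = 0.83 by edgeR). This is the gene with the seed match shown above. Its sign turned without siControl replicate 1 (0.05) and without siALKBH5 replicate 1 (0.01). SRSF9 (SRp30c, ENSG00000111786, chr12:120461668-120469793, minus strand), a relative of SRSF1, had 55.3 and 58.8 CPM in siControl and 56.8 and 53.7 CPM in siALKBH5. Values of the groups were interleaved, with a log2 fold change of -0.04 (95% interval -0.16 to 0.07, adjusted p = 0.59 by edgeR) that came to 0.001 without siControl replicate 2. For either gene, these libraries are compatible with no change and with any change within its interval.

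SRSF10 and SRSF11 differ from the classical family in activity. SRSF10 (SRp38, ENSG00000188529, chr1:23964804-23980927, minus strand) is known as a splicing repressor when dephosphorylated and as a sequence-dependent activator when phosphorylated, and it had 80.5 and 85.5 CPM in siControl and 72.0 and 69.1 CPM in siALKBH5. Both siALKBH5 values were below both siControl values. SRSF10 fell to 85% of control (log2 fold change -0.23 ± 0.05 SE, adjusted p = 0.00028 by edgeR). SRSF11 (p54, ENSG00000116754, chr1:70205682-70253052, plus strand), an SR-related protein of nuclear speckles, had 131 and 142 CPM in siControl and 107 and 106 CPM in siALKBH5. The siControl libraries were further apart than for SRSF5 or SRSF6, and the siALKBH5 libraries lay well below the lower of them. SRSF11 fell to 77.5% of control (log2 fold change -0.37 ± 0.04 SE, 95% interval -0.45 to -0.28, adjusted p = 1.1e-08 by edgeR), and its interval overlaps that of SRSF5. The 5 calls of the family kept their direction in each of 12 alternatives, all of which reuse the same libraries. Log2 fold changes were 0.27 to 0.32 for SRSF3, -0.38 to -0.34 for SRSF5, -0.26 to -0.20 for SRSF6, -0.28 to -0.19 for SRSF10 and -0.42 to -0.31 for SRSF11.

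Levels were then set side by side per length, as TPM by the gene length that the tables list. In siControl the order ran from SRSF5 (94.7 in both libraries), SRSF2 (84.3 and 76.6), SRSF6 (76.3 and 79.9) and SRSF3 (77.4 and 76.1) to SRSF11 (44.7 and 48.5), SRSF7 (48.1 and 45.1), SRSF9 (42.6 and 45.3), SRSF1 (38.8 and 36.6), SRSF4 (35.6 and 36.1) and SRSF10 (22.6 and 24.0). Neighbours overlapped over the siControl libraries for SRSF2 and SRSF6, SRSF6 and SRSF3, SRSF11 and SRSF7, and SRSF7 and SRSF9. In siALKBH5 the order was led by SRSF3 (93.6 and 94.3), which stood at rank 4 in siControl, ahead of SRSF2 (77.5 and 80.2) and SRSF5 (72.5 and 74.3). SRSF11 moved from rank 5 to rank 9, at 36.2 and 35.7 TPM. The listed lengths count every annotated exon of a gene, which for SRSF10 is 10277 bases against 1631 in its main coding transcript, and for SRSF2 is 3017 against 2885. Per kilobase of the main coding transcript, a scale chosen after the data were seen, SRSF10 was at rank 2, with 49.4 and 52.4 CPM per kilobase in siControl, SRSF2 at rank 7, SRSF6 at rank 9 and SRSF5 at rank 1. The order between genes therefore depended on the length used, while the edgeR fold changes between groups, taken from counts, do not involve it.

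**Figure D3:**
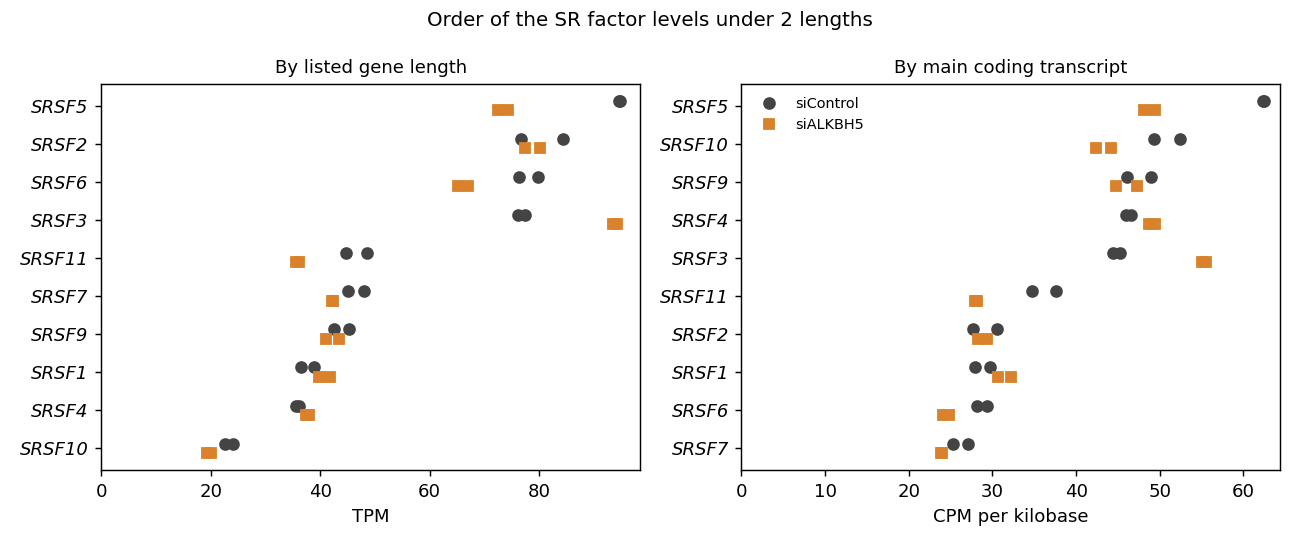
Level of each SR factor per length in the siControl libraries (circles) and the siALKBH5 libraries (squares), as TPM by the listed gene length on the left and as CPM per kilobase of the main coding transcript on the right, each ordered by siControl. SRSF5 leads both orders in siControl, while SRSF10 stands at rank 10 on the left and at rank 2 on the right.

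The summed level of the family was 565 and 563 TPM in siControl and 530 and 531 TPM in siALKBH5, a ratio of 0.941. Both siALKBH5 sums were lower, with a two-sided exact permutation p = 0.333, which is the smallest that 2 against 2 libraries can give. Shares within this sum use the listed gene lengths, so they depend on the length chosen, as the order above did. Within this sum the share of SRSF3 was 13.7% and 13.5% in siControl and 17.6% and 17.8% in siALKBH5. SRSF5 made up 16.8% of the sum in either siControl library and 13.7% and 14.0% in siALKBH5, and the share of SRSF11 was 7.92% and 8.62% in siControl and 6.82% and 6.71% in siALKBH5. The level of SRSF3 divided by that of SRSF5, a pair chosen after their values were seen and given without a test, was 0.817 and 0.803 in siControl and 1.29 and 1.27 in siALKBH5. SRSF3 was thus below SRSF5 in both siControl libraries and above it in both siALKBH5 libraries, on the TPM scale.

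**Figure D4:**
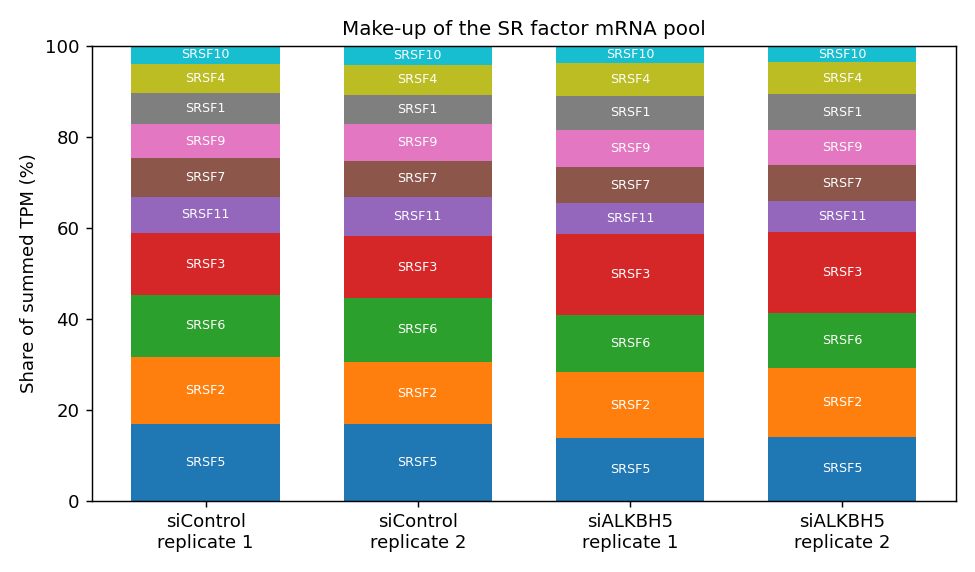
Share of each SR factor in the summed TPM of the 10, by the listed gene length, in percent, for each library. The band of SRSF3 widens from 13.7% and 13.5% in siControl to 17.6% and 17.8% in siALKBH5, and that of SRSF5 narrows from 16.8% to 13.7% and 14.0%.

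The annotation of the genes bears on what their counts hold. In GENCODE release 29, all 10 SR factors have at least 1 transcript annotated as a target of nonsense-mediated decay, against 42.9% of 12525 coding genes tested, and 8 of 10 have a retained-intron transcript, against 57.7%. SRSF6 and SRSF11 are the members with no retained-intron transcript. Counts per gene add such transcripts to the coding ones, so the values above cannot separate them. The letters GGACT, the commonest form of the m6A consensus, were present in the main transcript of each of the 10, from 0.231 per kilobase in SRSF6 to 3.33 per kilobase in SRSF9, beside a median of 0.939 over 12207 genes. The 5 called members had between 0.231 and 0.793 per kilobase. Of the 5 others, SRSF4 (0.419) and SRSF1 (0.661) lay inside that range, and SRSF2 (1.04), SRSF7 (2.01) and SRSF9 lay above it. A match is a description of the sequence and not a methylated site.

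Some of the genes share bases with others. MFSD11, on the strand opposite to SRSF2, shares 1106 exon bases with it and had 324, 384, 460 and 428 counts in siControl replicates 1 and 2 and siALKBH5 replicates 1 and 2. GATC, on the strand opposite to SRSF9, shares 1729 exon bases and had 419, 573, 450 and 444 counts. How the counting treated strand is not given in the sources used here, so the values of SRSF2 and SRSF9 are uncertain to that extent. SRSF1 shares 1890 of its 3340 listed exon bases with AC015813.2 on the same strand, which held at most 1 count. It shares 440 bases with AC015813.5 on the opposite strand, which held 6 to 8 counts. How reads in shared bases were assigned is not given either, so the level of SRSF1 is uncertain too. Pseudogenes of SRSF1, SRSF9 and SRSF10 held 0 to 2 counts in any library. None of the 5 genes that were called shares exon bases with another annotated gene.

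Promoters, the 250 bases before the transcription start, are printed for SRSF3, which rose, and for SRSF5, which fell at a similar level. They come from RefSeq (GRCh38.p14), which gave 11 windows for 9 of the 10 genes. SRSF2 had none, and SRSF7 and SRSF11 had 2 each, those of SRSF7 overlapping. The SRSF5 window precedes a RefSeq start and lies inside the span of the counted gene, which begins at chr14:69726900. Searched on both strands were the CCAAT box (CCAAT), the TATA box (TATAAA), the GC box (GGGCGG), the E-box (CACGTG) and the ETS core (CCGGAAG), and matches are in capitals.
SRSF3 promoter (chr6:36594112-36594361, plus strand): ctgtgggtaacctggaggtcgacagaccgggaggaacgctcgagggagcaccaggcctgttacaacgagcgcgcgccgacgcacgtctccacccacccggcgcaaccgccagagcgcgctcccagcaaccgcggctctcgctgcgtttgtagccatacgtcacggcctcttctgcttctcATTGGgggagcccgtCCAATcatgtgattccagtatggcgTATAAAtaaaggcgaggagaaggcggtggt
SRSF5 promoter (chr14:69766892-69767141, plus strand): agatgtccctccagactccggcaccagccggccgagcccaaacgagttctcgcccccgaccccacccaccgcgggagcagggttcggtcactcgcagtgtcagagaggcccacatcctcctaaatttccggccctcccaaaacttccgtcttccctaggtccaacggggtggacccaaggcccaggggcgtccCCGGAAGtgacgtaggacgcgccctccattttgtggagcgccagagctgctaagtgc
The window of SRSF3 holds 2 CCAAT boxes, 1 on each strand, and 1 TATA box, and it was the only one of the 11 windows with a CCAAT box, which 32% of 35116 promoter windows hold. A TATA box was in 3 of the 11 windows against 10.7% of all windows, a GC box in 4 against 42.6%, an ETS core in 2 against 8.52% and an E-box in 0 against 6.34%. SRSF5 and SRSF4 held the ETS core, and their log2 fold changes were -0.36 and 0.09. These matches say nothing of factor binding.

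The kinases that phosphorylate SR proteins and the importin that carries them were read from the same fit. Of 10 genes listed 9 were tested (SRPK3 was not), and 1 was called higher and 4 lower. Over all genes tested, the shares called were 19.3% higher and 17.3% lower. CLK1, which phosphorylates SR proteins in the nucleus, had 96.1 and 102 CPM in siControl and 51.4 and 53.6 CPM in siALKBH5, and CLK4, its close relative, had 34.2 and 34.7 CPM in siControl and 18.0 and 19.6 CPM in siALKBH5. Both genes were lower in each siALKBH5 library by more than any SR factor. CLK1 fell to 52.8% of control (log2 fold change -0.92 ± 0.05 SE, adjusted p = 2.7e-16 by edgeR) and CLK4 to 54.5% (-0.88 ± 0.08 SE, adjusted p = 1.8e-10 by edgeR). CLK2, another member of that kinase family, had 40.5 and 39.1 CPM in siControl and 31.6 and 31.8 CPM in siALKBH5 and fell by less (log2 fold change -0.33, adjusted p = 0.00039 by edgeR). The remaining call was PRPF4B, a kinase of the spliceosome, at -0.31 (adjusted p = 8.5e-06 by edgeR). CLK3 (-0.02), DYRK1A (0.01) and the cytoplasmic kinases SRPK1 (0.04) and SRPK2 (0.05) did not pass the test. TNPO3, which imports phosphorylated SR proteins, was called higher at the edge of the threshold (log2 fold change 0.12, adjusted p = 0.05 by edgeR as rounded) and lost its call with DESeq2 (adjusted p = 0.19) and without any one of the 4 libraries.

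Other SR-related proteins were called in both directions, 3 higher and 3 lower of 13 tested, beside 19.3% and 17.3% of all genes tested. SREK1, a splicing regulatory protein with an arginine-serine tail, had 70.8 CPM in each siControl library against 59.6 and 55.7 CPM in siALKBH5 (log2 fold change -0.29, adjusted p = 4.1e-05 by edgeR). SRSF8, the paralog of SRSF2 that is not among the 10, had 54.6 and 58.6 CPM in siControl and 48.9 and 47.2 CPM in siALKBH5 (log2 fold change -0.24, adjusted p = 0.002 by edgeR), while its call was lost without siControl replicate 2 (-0.18, adjusted p = 0.063 by edgeR). ACIN1, a component of the exon junction complex, had a log2 fold change of -0.11 (adjusted p = 0.012 by edgeR), which was not called with DESeq2 (adjusted p = 0.091), without siControl replicate 2 (-0.08) or without siALKBH5 replicate 2 (-0.09). The nuclear speckle proteins SON (0.14, adjusted p = 0.0028 by edgeR) and SRRM2 (0.08, adjusted p = 0.021 by edgeR) were higher by small amounts. The call of SRRM2 was lost with DESeq2 (adjusted p = 0.066), without siControl replicate 1 (0.07) and without siALKBH5 replicate 1 (0.05). U2AF1, which reads the 3′ splice site, was also called higher, but its counts were 18 and 25 in siControl against 215 and 17 after knockdown, so the call rested on siALKBH5 replicate 1. Without that library its log2 fold change went from 2.35 to -0.28, and a near-identical copy of the gene makes its counts uncertain. The median log2 fold change of these proteins was 0.06 with U2AF1 and 0.005 without it. Without siALKBH5 replicate 1 the count called higher was 1, and without siControl replicate 2 the count called lower was 1.

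Proteins of the hnRNP family, which often oppose SR proteins at exons, had a median log2 fold change of -0.01. Of 15 tested, 3 were called higher and 6 lower, beside 19.3% and 17.3% of all genes tested. With DESeq2 the counts were 3 higher and 4 lower. HNRNPH1, which binds runs of G, had 191 and 197 CPM in siControl and 152 and 142 CPM in siALKBH5 (log2 fold change -0.40, adjusted p = 8.9e-11 by edgeR), a fall close in size to that of SRSF11 and SRSF5. HNRNPK (-0.20, adjusted p = 1.4e-08 by edgeR) and HNRNPU (-0.20, adjusted p = 2e-07 by edgeR) also fell. HNRNPL, a binder of CA repeats, had 74.4 and 66.8 CPM in siControl and 87.2 and 86.8 CPM in siALKBH5 (log2 fold change 0.30, adjusted p = 1.1e-05 by edgeR). HNRNPC (0.22, adjusted p = 2.4e-09 by edgeR) and PTBP1 (0.16, adjusted p = 6.3e-06 by edgeR), both binders of pyrimidine-rich RNA, rose as well.

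Of 10 mRNA export partners of SR proteins tested by edgeR, 3 were called higher and 0 lower, beside 19.3% and 17.3% of all genes. The largest negative values were those of THOC1 (-0.24) and NXF1 (-0.14), the 2 genes below control at an unadjusted p under 0.05, and DESeq2 called 0 lower. ALYREF, the adaptor of the TREX complex, had 29.4 and 29.7 CPM in siControl and 44.8 and 46.8 CPM in siALKBH5. It rose to 154.9% of control (log2 fold change 0.63 ± 0.07 SE, adjusted p = 5.6e-09 by edgeR), beside 0.30 for SRSF3. THOC3 (0.36, adjusted p = 0.00046 by edgeR) and THOC5 (0.27, adjusted p = 0.0023 by edgeR), subunits of the THO complex, rose too, but THOC5 was not called without siALKBH5 replicate 2 (0.18, adjusted p = 0.097 by edgeR). NXF1, the receptor to which SRSF1, SRSF3 and SRSF7 hand over mRNA, had 47.0 and 47.3 CPM in siControl and 44.7 and 40.9 CPM in siALKBH5, and did not pass the test (log2 fold change -0.14, adjusted p = 0.094 by edgeR). Without siALKBH5 replicate 1 it was the 1 export partner called lower (-0.21, adjusted p = 0.043 by edgeR).

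Nuclear m6A readers were called higher for 2 and lower for 1 of 4, beside 19.3% and 17.3% of all genes tested. HNRNPC and HNRNPA2B1 are on the hnRNP list too, so they were counted there as well. YTHDC1, the known partner of SRSF3 and SRSF10, had 66.0 and 72.9 CPM in siControl and 64.1 and 58.3 CPM in siALKBH5. The groups did not overlap but were close, and the log2 fold change was -0.18 ± 0.06 SE (adjusted p = 0.012 by edgeR), a call that was lost with DESeq2 (adjusted p = 0.09), without siControl replicate 2 (-0.11) and without siALKBH5 replicate 2 (-0.12). SRSF3, SRSF10 and YTHDC1 thus gave log2 fold changes of 0.30, -0.23 and -0.18. HNRNPC and RBMX (0.13, adjusted p = 0.002 by edgeR), which bind RNA whose structure m6A opens, were higher, and HNRNPA2B1 (0.05, adjusted p = 0.08 by edgeR) did not pass the test.

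**Figure D5:**
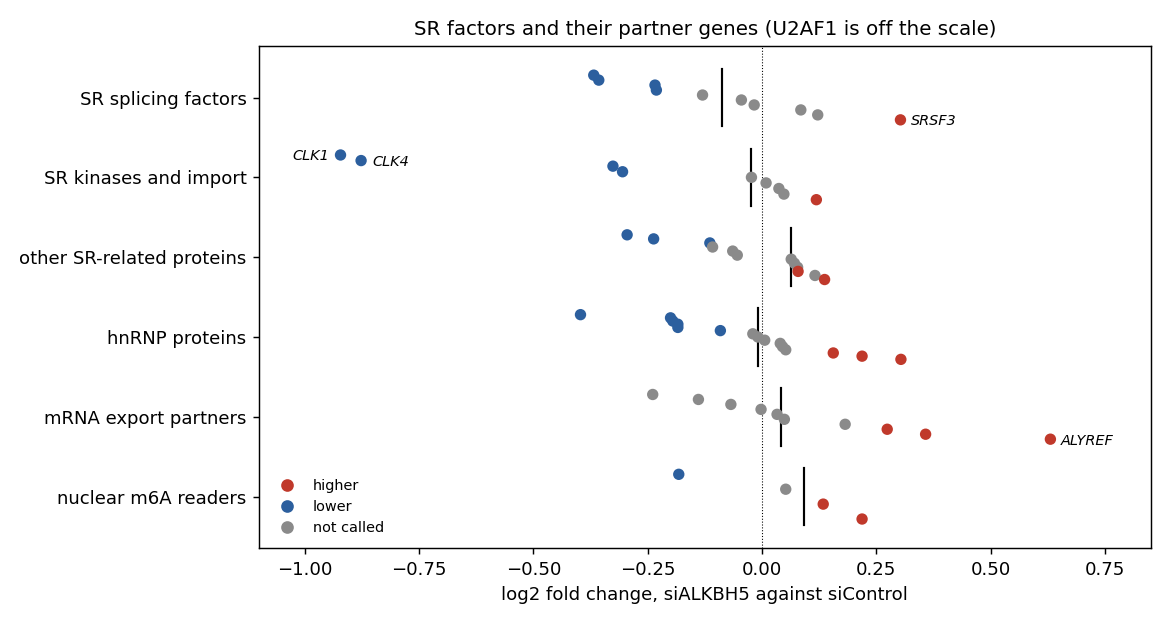
Log2 fold change, siALKBH5 against siControl, of the SR factors and of 5 lists of partner genes. Each list has 1 point per gene coloured by its call, and a vertical bar at the median over all genes tested in it. HNRNPC and HNRNPA2B1 are on both the hnRNP and the reader list and are drawn in each. U2AF1 (2.35) lies outside the axis. CLK1 (-0.92) and CLK4 (-0.88) stand to the left of every SR factor, and ALYREF (0.63) to the right.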

How the data were processed

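HaCaT cells transfected with control or ALKBH5 siRNA were profiled by poly-A RNA-seq, 2 libraries per group. Per the labels and the submitters' processing notes, CASAVA, HISAT2 2.0.5, featureCounts 1.5.0-p3 and DESeq2 1.20.0 were named, with hg38, and the authors deposited 1 table per pair of libraries holding raw counts per gene, FPKM per listed gene length and their own comparison of 1 library with 1 (log2 fold changes and p-values), which was not used. The FPKM that the authors deposited were scaled within each table, so FPKM and TPM were recomputed from the counts. Every column of per-sample values was mapped to a library (0 were left out), and all 58735 genes matched GENCODE 29.

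Counts of all genes were fitted by edgeR 4.0.16 (R 4.3.3), keeping genes by filterByExpr, scaling by TMM and testing with glmQLFit and glmQLFTest without covariates, with Benjamini-Hochberg adjustment over the 15075 genes tested and calls at an adjusted p under 0.05. Levels are CPM after TMM, whose factors were between 0.992 and 1.01. Intervals are at 95% and rest on the spread between libraries, estimated for each gene with information shared over genes. Alternatives were DESeq2 1.42.0 in place of edgeR, its size factors or plain library size in place of TMM, a minimum mean count of 10 or none, log2(FPKM + 1) or log2(FPKM + 0.1) in limma 3.58.1 for genes at a mean FPKM of 1 or more, a replicate block, and each library left out. All of them reuse the same libraries. Leaving a library out leaves 1 in its group, so the spread then comes from the other group and from sharing over genes. The fits were tested on simulated data with known changes, set in 200 genes with a mean of 500 counts or more. The same spread, the median over genes, was used for every gene. In the real data 2913 genes were called higher and 2610 lower, so the simulated counts do not give the power or false calls there. Of 100 genes changed by a log2 fold of 0.3, edgeR called 64, DESeq2 38 and limma on log2(FPKM + 1) 10. Each tool called all 100 genes changed by a log2 fold of 1. Calls among unchanged genes numbered 7 for edgeR, 1 for DESeq2 and 19 for limma. The SR factors, the lists of partner genes and the tests were chosen with earlier results of these data known. From each list the 3 genes called higher and the 3 called lower with the largest log2 fold change were named. PRPF4B, NXF1, THOC1 and the uncalled kinases and readers were named beyond that rule after their values were seen. Motifs and seed matches were searched as exact letters. MeRIP-seq was not analysed here.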

Additional observations from a re-analysis of the deposited data

How the results depend on the processing

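The 5 calls among the SR factors (SRSF3, SRSF5, SRSF6, SRSF10 and SRSF11) kept their direction in all 12 alternatives. In the alternatives that kept every library they stayed past the threshold, and the count past the thresholds of the study was 0 in each. The number of SR factors called lower was 4 or 5, SRSF7 being the addition. Leaving out 1 library gave log2 fold changes of -0.088 to 0.053 for SRSF2, which turned sign without replicate 1 of either group (0.053 and 0.010), of -0.088 to 0.001 for SRSF9, which turned without siControl replicate 2, and of -0.283 to 3.184 for U2AF1, which turned without siALKBH5 replicate 1. Of these, U2AF1 alone was called. Over all genes, 1848 were called higher with limma on log2(FPKM + 1) and 1838 on log2(FPKM + 0.1), against 2913, and 1431 were called lower with DESeq2, against 2610. With DESeq2 the count called higher was 0 among SR kinases and import and 1 among other SR-related proteins, and the count of m6A readers called lower was 0. Leaving out 1 library gave 0 (lowest and highest) SR kinases and import genes called higher, 1 to 4 other SR-related proteins higher and 1 to 4 lower, 0 to 1 export partners lower and 0 to 1 m6A readers lower. The summed level of the SR factors was 0.950 of control by CPM, against 0.941 by TPM. The cause of these shifts was not tested. The labels number no replicates, and deviations of libraries deposited in 1 table correlated at 0.049, so the replicate block is an alternative, under which SRSF7 (-0.131) and HNRNPA2B1 (0.052) were also called, no gene named by the rule other than SRSF7 changed its call, and 3091 genes were called higher and 2831 lower. The least counted member, SRSF1, with 725 to 865 counts in a library, had the widest interval of the 10.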
